A study of Arabidopsis thaliana with 8 samples.

Results

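The genes described here make and export the plant cuticle, the layer of cutin polyester and wax that seals the shoot surface. They are 10 loci picked by name: CER1, CER3, CER4, CER6, KCS1, LACS1, LACS2, MAH1, WSD1 and ABCG11. Of the 20701 loci with counts, 7 belong to the set, and the alcohol-forming reductase gene CER4, the alkane hydroxylase gene MAH1 and the wax ester synthase gene WSD1 were not analysed here. Messenger RNA was sequenced from whole Arabidopsis thaliana seedlings, cultivar Columbia, 10 days old after germination, in 2 groups. The transgenic group carried 35S:CAHB12, a coffee homeodomain-leucine zipper gene of class I behind a promoter that is active in most tissues, and the wild-type group carried no transgene. Each group had 2 pools of 50 seedlings, which the labels call biological replicates, grown at 22 °C under 18 h light and 6 h dark. The design text speaks of a pair of transgenic lines, but the labels tie no pool to a line, and the coffee transcript itself was not analysed here.

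Cuticle lipids are made in the epidermis. Long-chain fatty acids are activated to acyl-CoA by synthetases of the LACS family, and the fatty acid elongase of the endoplasmic reticulum lengthens them, its condensing enzyme (a KCS protein) setting the chain length. CER1 and CER3 together turn very long acyl chains into alkanes, the main wax of Arabidopsis leaves and stems, while cytochrome P450 and acyltransferase enzymes make cutin monomers. Half-transporters of the ABCG family, ABCG11 among them, carry both products across the plasma membrane. Drought and the hormone abscisic acid are known to raise wax synthesis, in part through the transcription factor MYB96.

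The libraries held 15424261 and 16615556 counts in transgenic pools and 15682546 and 19436632 in wild-type pools. Levels are given as CPM, counts as a share of the library total, after scaling by trimmed mean (TMM) factors, and levels of different genes are compared only as RPKM, which divides CPM by the deposited length. That length lay within 10% of the whole gene span, introns included, at 66.6% of the named loci, and at 85.0% to 97.7% of the span in the 7 genes of the set, so RPKM is lower for a gene with many introns. The tissue label was checked against markers. All 4 leaf, 4 root and 6 epidermis markers had counts in all 4 libraries. The 4 seed storage and oil body markers summed to 2.21 and 119 CPM in transgenic pools and to 19.7 and 45.8 CPM in wild-type pools. On the first principal component, with 52.7% of the variance, wild-type replicate 1 stood farthest from the others at 26.5, against -5.33 and -21.6 for the transgenic pools and 0.344 for wild-type replicate 2. The second component held 27.8% of the variance. There transgenic replicate 1 stood farthest from the others at 20.0, against -5.62 for transgenic replicate 2 and -0.358 and -14.1 for the wild-type pools.

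The set spanned a wide range of levels. The condensing enzyme gene CER6, which serves the longest wax chains, was the highest, with 103 and 121 RPKM in transgenic pools and 114 and 120 RPKM in wild-type pools, at the 97.0th percentile of all genes tested. KCS1, a condensing enzyme gene of broad substrate range, followed with 40.0 and 38.7 RPKM in transgenic pools and 38.6 and 39.3 RPKM in wild-type pools. Next came ABCG11, CER1 and CER3, with means over the 4 libraries of 25.8, 25.5 and 23.9 RPKM. The libraries of these 3 genes overlapped, so their order is not resolved. LACS1, the synthetase gene for very long acyl chains (also CER8), had 9.66 and 9.02 RPKM in transgenic pools and 9.67 and 9.58 RPKM in wild-type pools. LACS2, the synthetase gene best known for cutin, was the lowest at 3.41 and 3.48 RPKM in transgenic pools and 3.95 and 3.04 RPKM in wild-type pools, at the 30.4th percentile. In RPKM, CER6, KCS1, the middle 3, LACS1 and LACS2 thus formed 5 steps whose libraries did not overlap. These steps rest on the deposited length, which follows the gene span with introns. It was 1898 bases for KCS1 and 3957 bases for ABCG11, and an order by spliced length was not tested.

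**Figure D1:**
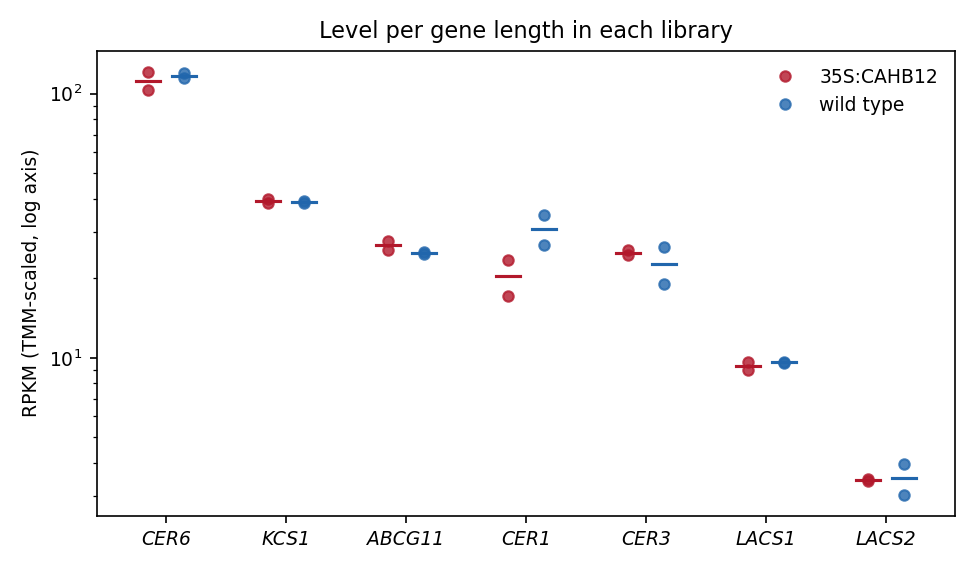
Level per gene length (RPKM, log axis) of the 7 measured genes in each library, with 35S:CAHB12 pools in red left of wild-type pools in blue; points are libraries and bars are group means of 2. The genes run from CER6 at 103 to 121 RPKM down to LACS2 at 3.04 to 3.95 RPKM, and the groups lie visibly apart only for CER1 and, narrowly, ABCG11.

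The first comparison asked which of these genes differed between transgenic and wild-type seedlings. None passed the test. CER1 showed the largest difference and was lower in both transgenic pools, whereas the other 6 genes lay within 0.14 of 0 on the log2 scale. By edgeR's quasi-likelihood test with Benjamini-Hochberg adjustment over 20298 genes, 0 of the 7 passed an adjusted p under 0.05, against a background of 0.0838% of all genes. At an unadjusted p under 0.05 there was 1 of the 7 (14.3%), CER1, against 7.92% of all genes. DESeq2, which called 0.367% of all genes, and limma on log2 RPKM, which called 0.0493%, also called 0 of the 7. The groups did not overlap for 2 of the 7 (28.6%), CER1 lower and ABCG11 higher, against 39.4% of all genes. The median log2 fold change of the 7 was -0.016, and that of all genes tested was 0.0065.

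CER1 (AT1G02205) encodes the partner thought to release the alkane. It stood at 86.3 and 63.2 CPM in transgenic pools and at 127 and 97.9 CPM in wild-type pools. Both transgenic pools lay below both wild-type pools, but replicate 2 was also below replicate 1 within each genotype, by 0.45 on the log2 scale in transgenic and 0.38 in wild-type seedlings. The group means were 74.8 ± 16.4 CPM in transgenic and 112 ± 20.6 CPM in wild-type seedlings (SD, n = 2 each). The log2 fold change was -0.59 (SE 0.17, 95% interval -0.98 to -0.20), a transgenic level 0.665 times that in wild type, with an edgeR adjusted p of 0.472. It was -0.84 without transgenic replicate 1 and -0.38 without transgenic replicate 2. Without wild-type replicate 1 it was -0.39, and without wild-type replicate 2 it was -0.77. DESeq2 gave CER1 an adjusted p of 0.217.

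CER3 (AT5G57800), whose protein binds CER1 and is thought to supply its aldehyde substrate, did not pass the test. Transgenic pools had 98.2 and 94.2 CPM, and wild-type pools had 73.0 and 101 CPM. The transgenic pools lay between the wild-type ones, which differed from each other by 0.47 on the log2 scale. The log2 fold change was 0.14 (SE 0.15, 95% interval -0.20 to 0.48; edgeR adjusted p = 0.829), and it was -0.076 without wild-type replicate 1 and 0.39 without wild-type replicate 2. The ratio of CER1 to CER3 per gene length, taken within a library and so free of library scaling, was 0.921 and 0.703 in transgenic pools and 1.82 and 1.01 in wild-type pools. Both transgenic ratios were below both wild-type ratios, and the spread between the wild-type pools was the wider one. An exact two-sided permutation test gave p = 0.333, the smallest that 2 pools against 2 allow (adjusted p = 0.833 over the 5 ratios computed, which were chosen after values were seen).

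**Figure D2:**
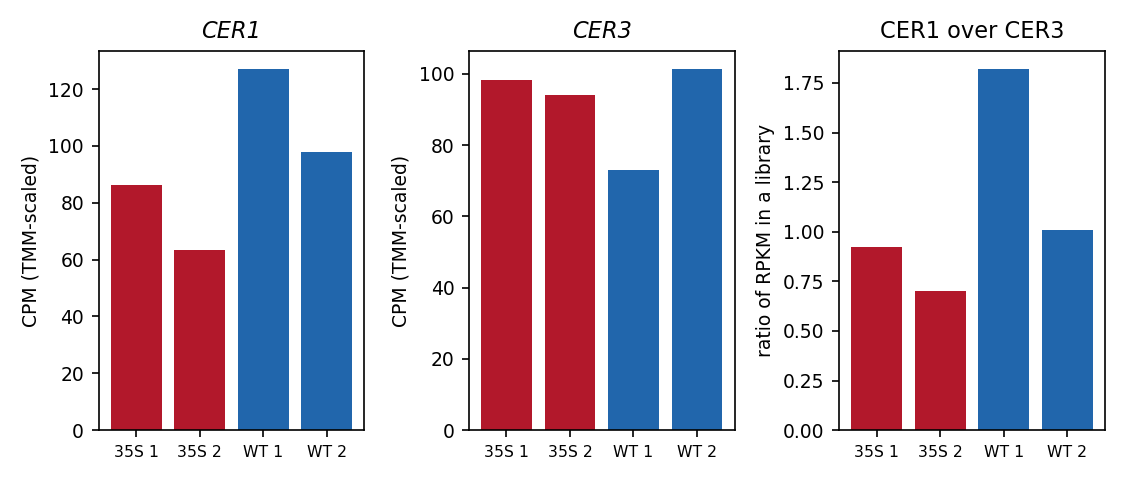
CER1 and CER3 in each library (CPM, TMM-scaled) and the within-library ratio of their RPKM; red bars are 35S:CAHB12 pools 1 and 2, blue bars are wild-type pools 1 and 2. CER1 is lower in both transgenic pools (86.3 and 63.2 CPM, against 127 and 97.9 CPM in wild-type pools), CER3 overlaps between the groups, and the ratio ranges from 0.703 to 1.82.

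The only close copy of CER1 among the genes examined, AT1G02190 (called CER1L1 here), is the next protein-coding gene on the chromosome. It was near the lower limit of counting, with 13 and 15 counts in transgenic pools and 7 and 14 counts in wild-type pools. Per gene length it held 0.280 and 0.314 RPKM in transgenic pools and 0.153 and 0.247 RPKM in wild-type pools, so CER1 made up nearly all of the signal of this neighbouring pair in every library. Its log2 fold change of 0.54 had an interval from -0.45 to 1.54 (edgeR adjusted p = 0.774).

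Neither condensing enzyme gene passed the test. CER6 (AT1G68530, KCS6 in the name table) had 229 and 268 CPM in transgenic pools and 254 and 266 CPM in wild-type pools. The transgenic pools bracketed the wild-type ones, and the log2 fold change was -0.064 (SE 0.11, 95% interval -0.31 to 0.18; edgeR adjusted p = 0.901). KCS1 (AT1G01120) had the smallest SE of the set, 0.089, with 75.9 and 73.5 CPM in transgenic pools and 73.3 and 74.5 CPM in wild-type pools. The groups overlapped, with a log2 fold change of 0.015 (95% interval -0.19 to 0.22; edgeR adjusted p = 0.980), or 0.877 to 1.16 as a fold. The ratio of CER6 to KCS1 per gene length was 2.58 and 3.12 in transgenic pools and 2.96 and 3.05 in wild-type pools, with overlapping groups.

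Neither acyl activating gene passed. LACS1 (AT2G47240) had 50.9 and 47.6 CPM in transgenic pools and 51.0 and 50.5 CPM in wild-type pools, a log2 fold change of -0.044 (SE 0.093, 95% interval -0.26 to 0.17). LACS2 (AT1G49430) had 16.3 and 16.6 CPM in transgenic pools and 18.9 and 14.5 CPM in wild-type pools. Its wild-type pools lay on either side of the transgenic ones, and the interval was wider, from -0.36 to 0.33 around -0.016. The edgeR adjusted p was 0.929 for LACS1 and 0.986 for LACS2.

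The exporter gene ABCG11 (AT1G17840) was slightly higher in both transgenic pools, at 101 and 110 CPM, against 99.4 and 98.0 CPM in wild-type pools. The gap was narrow beside the spread of the transgenic pools, and the log2 fold change of 0.098 (SE 0.092, 95% interval -0.11 to 0.31) did not pass (edgeR adjusted p = 0.807). Its gene model overlaps that of AT1G17850, with which reads can be shared if strand was not counted. ABCG12 (AT1G51500, also CER5), the half-transporter that pairs with ABCG11 for wax, had 89.4 and 96.2 CPM in transgenic pools and 102 and 94.1 CPM in wild-type pools. The ratio of ABCG11 to ABCG12 per gene length was 0.941 and 0.947 in transgenic pools and 0.811 and 0.864 in wild-type pools. The groups did not overlap, and the exact permutation p was again 0.333 (adjusted 0.833).

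Taking the set as a share of the messenger RNA, the 7 genes summed to 658 and 673 CPM in transgenic pools and to 697 and 703 CPM in wild-type pools. Without CER1 the sums were 572 and 610 CPM in transgenic pools and 570 and 605 CPM in wild-type pools, and the groups overlapped. Across the 6 genes other than CER1, the 95% intervals of the fold ran from 0.778 (LACS2) to 1.39 (CER3).

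**Figure D3:**
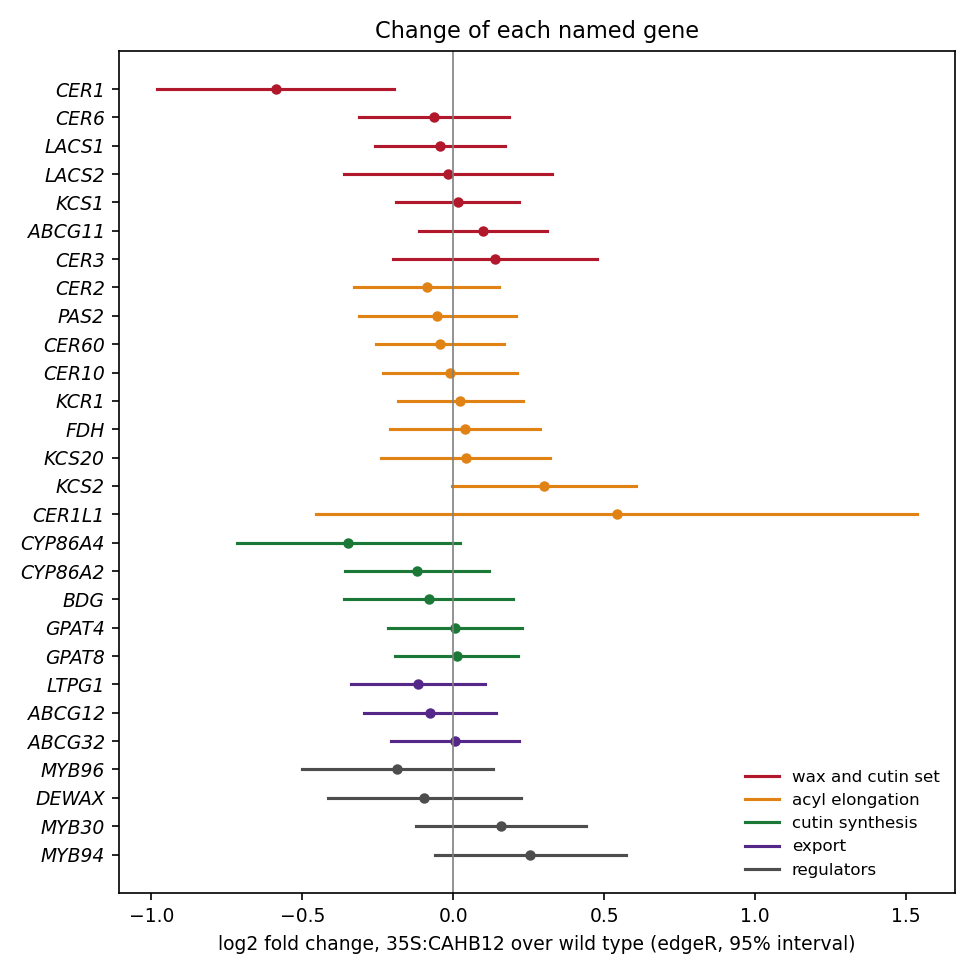
Log2 fold change of 35S:CAHB12 over wild type (edgeR, points) with 95% intervals (lines) for the 7 measured genes and 21 further cuticle genes named for their role, coloured by role. Among the plotted genes, CER1 at -0.59 has the only interval that leaves out 0, and it did not pass adjustment over all genes; of the further cuticle genes not plotted, CUS2, DCR, ABCG13 and SHN3 also have intervals that leave out 0.

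The second comparison asked whether the rest of the cuticle pathway differed. It used 56 further genes of elongation, cutin synthesis, export and regulation, chosen for their role but with earlier results of these data known. Of these, 53 had counts and 52 were tested. By edgeR 0 rose and 0 fell at an adjusted p under 0.05, and 4 reached an unadjusted p under 0.05 (7.69%, against 7.92% of all genes). DESeq2 and limma called 0 as well. The groups did not overlap for 7 higher and 16 lower (13.5% and 30.8%, against 20.2% and 19.3% of all genes).

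No other enzyme gene of the elongase cycle passed. The ketoacyl reductase gene KCR1, the dehydratase gene PAS2 and the enoyl reductase gene CER10 had log2 fold changes of 0.024, -0.053 and -0.010. CER2, needed with CER6 for the longest chains, had 41.7 and 48.2 CPM in transgenic pools and 47.1 and 48.5 CPM in wild-type pools (log2 fold change -0.088), and CER60, the closest relative of CER6, had -0.043. KCS20 and the epidermal gene FDH had 0.041 and 0.040. KCS2, a condensing enzyme gene of root suberin and wax, stood at 13.8 and 13.1 CPM in transgenic pools and at 11.5 and 10.4 CPM in wild-type pools (log2 fold change 0.30, edgeR adjusted p = 0.632). The gene models of CER10, CER2 and KCS2 overlap those of neighbouring genes that also have counts, as do those of CYP86A2, BDG and LTPG1 described next.

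KCS9 (a further condensing enzyme gene) and CER26 (AT4G13840, a relative of CER2) were singled out after their values were seen. KCS9 had 194 and 205 CPM in transgenic pools and 137 and 207 CPM in wild-type pools, so its wild-type pools differed by 0.60 on the log2 scale, in the same direction as those of CER3. CER26 had 64.4 and 56.2 CPM in transgenic pools and 87.6 and 65.0 CPM in wild-type pools, with replicate 2 lower in each genotype as for CER1. Their log2 fold changes were 0.21 and -0.34 (edgeR adjusted p = 0.783 and 0.631). Without wild-type replicate 2 KCS9 stood at 0.53 and CER26 at -0.55. Without wild-type replicate 1 they stood at -0.058 and -0.11.

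Among 14 cutin synthesis genes 10 had lower and 4 had higher means in transgenic seedlings (71.4% lower, against 48.6% of all genes), with a median log2 fold change of -0.13. The groups did not overlap for 6 lower and 1 higher (42.9% and 7.14%, against 19.3% and 20.2% of all genes). The fatty acid hydroxylase genes CYP86A2 and CYP86A4 had log2 fold changes of -0.12 and -0.35, and CYP86A4 stood at 10.4 and 7.98 CPM in transgenic pools and at 11.7 and 11.6 CPM in wild-type pools. Its neighbour on the chromosome, the acyltransferase gene GPAT4, had 0.0059, and GPAT8, which acts redundantly with GPAT4, had 0.012. BDG, an epidermal hydrolase-type gene required for a sealed cuticle, had -0.081.

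CUS2 (AT5G33370), a GDSL-type cutin synthase gene that polymerises the monomers, had the smallest p of all the cuticle genes and was singled out for it. Its values were 7.08 and 8.59 CPM in transgenic pools and 13.5 and 14.02 CPM in wild-type pools. The groups did not overlap, and the log2 fold change was -0.81 (SE 0.15, 95% interval -1.15 to -0.47), with an edgeR adjusted p of 0.184 over all genes. With 1 library left out it ranged from -0.96 to -0.69 and did not pass in any of those 4 fits (lowest edgeR adjusted p 0.0523). Its gene model overlaps that of a pseudogene, AT5G33365. CUS1 (AT3G04290), another of the cutin synthesis genes, was added after its values were seen. In RPKM it had 53.8 and 55.3 in transgenic pools and 57.0 and 63.4 in wild-type pools. CUS2 had 3.08 and 3.74 RPKM in transgenic pools and 5.87 and 6.1 RPKM in wild-type pools. The log2 fold change of CUS1 was -0.14 (edgeR adjusted p = 0.746). DCR (AT5G23940, PEL3 in the name table), an acyltransferase gene of cutin assembly also noted after its values were seen, had 74.8 and 67.9 CPM in transgenic pools and 96.9 and 83.6 CPM in wild-type pools. Its log2 fold change was -0.34 (SE 0.11; edgeR adjusted p = 0.515).

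For export, the transporter gene ABCG32 and the lipid transfer protein gene LTPG1 had log2 fold changes of 0.0058 and -0.12. The least abundant of the 5 export genes, ABCG13, noted after its values were seen, had 85 and 68 counts in transgenic pools and 129 and 112 counts in wild-type pools. Its log2 fold change was -0.55 (SE 0.23; edgeR adjusted p = 0.622), and from -0.79 to -0.28 with 1 library left out.

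Among the regulators, MYB96 had 11.6 and 11.6 CPM in transgenic pools and 12.1 and 14.2 CPM in wild-type pools (log2 fold change -0.19, edgeR adjusted p = 0.765). Its relatives MYB94 and MYB30, also activators of wax genes, had 0.25 and 0.16. MYB94 stood at 16.6 and 18.0 CPM in transgenic pools and at 13.2 and 15.8 CPM in wild-type pools. DEWAX (AT5G61590), an ethylene response factor that lowers wax synthesis in the dark, was abundant, at 293 and 283 CPM in transgenic pools and 263 and 352 CPM in wild-type pools (log2 fold change -0.097). SHN3, a factor that promotes cutin and wax synthesis and was noted after its values were seen, had 6 and 2 counts in transgenic pools and 11 and 17 counts in wild-type pools (edgeR adjusted p = 0.579). SHN1 was not analysed here.

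**Figure D4:**
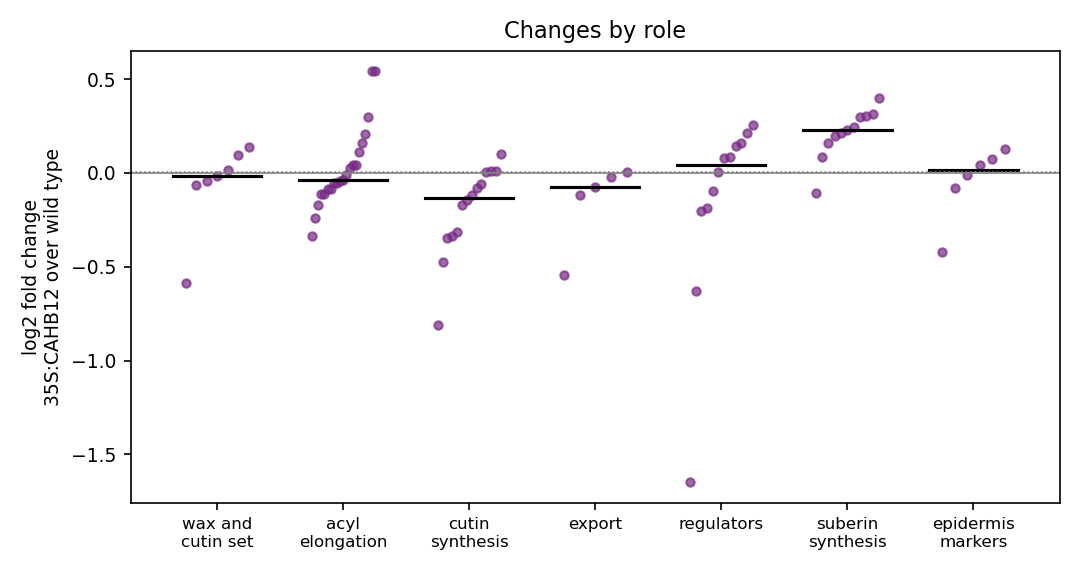
Log2 fold change of 35S:CAHB12 over wild type (edgeR) for every tested gene of each list, one point a gene, with black bars at list medians and a dotted line at the median of all genes (0.0065). The cuticle lists lie around 0, with medians from -0.13 (cutin synthesis) to 0.042 (regulators), and the suberin list has a median of 0.23.

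Suberin, the related polyester of roots, is made by paralogs of these enzymes. The list of 11 suberin genes was chosen with earlier results of these data known. Of the 11, 10 had higher and 1 had lower means in transgenic seedlings (9.09% lower, against 48.6% of all genes). The median log2 fold change was 0.23, and the groups did not overlap for 8 higher and 0 lower (72.7%, against 20.2% higher among all genes). By edgeR 0 of the 11 passed (0.0838% of all genes did), with 1 at an unadjusted p under 0.05 (9.09%, against 7.92% of all genes), and DESeq2 and limma called 0. That gene was CYP86A1, the fatty acid hydroxylase gene of root suberin, at 21.9 and 24.8 CPM in transgenic pools and 18.7 and 18.8 CPM in wild-type pools (log2 fold change 0.32, edgeR adjusted p = 0.597). Root markers also lay apart between the groups. The ER body glucosidase gene PYK10 had a log2 fold change of 0.30, and the phosphate transporter gene PHT1.1, the nitrate transporter gene NRT2.1 and the root hair gene COBL9 had -0.65, -0.65 and -0.63. In the edgeR fit of all 4 libraries with no covariate, none of the 4 markers passed (lowest adjusted p 0.0969, PHT1.1). In that fit 4 of 4 had an unadjusted p under 0.05 (7.92% of all genes did). The groups did not overlap for any of them (39.4% of all genes). PHT1.1 passed in DESeq2 (adjusted p = 0.0042), which called 0.367% of all genes. Its log2 fold change was -0.66 without wild-type replicate 1 and -0.65 without wild-type replicate 2. Summed, the root markers had 1587 and 1454 CPM in transgenic pools and 1319 and 1248 CPM in wild-type pools, nearly all of it PYK10. The other 3 summed to 63.0 and 70.7 CPM in transgenic pools and to 104.9 and 105.0 CPM in wild-type pools. No root marker was at 0, and their part in the suberin values was not tested.

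The 6 epidermis markers were summed beside the cuticle genes, since in whole seedlings fewer epidermal cells and less RNA per cell cannot be told apart. They summed to 1347 and 1555 CPM in transgenic pools and 1552 and 1576 CPM in wild-type pools, and none was at 0. The homeodomain genes ATML1, PDF2 and ANL2 had log2 fold changes of -0.013, -0.083 and 0.073, and PDF1 had 0.13. FDH, which is also counted among the further cuticle genes, had 0.040. LTP1 (AT2G38540), a lipid transfer protein gene, had 437 and 481 CPM in transgenic pools and 638 and 591 CPM in wild-type pools, a log2 fold change of -0.42 (SE 0.10; edgeR adjusted p = 0.339). Of the 6 markers only LTP1 had groups that did not overlap (16.7%, against 39.4% of all genes). The sum thus mixes its lower transgenic values with those of genes whose groups overlapped. Of the leaf markers, the chlorophyll-binding protein genes LHCB2.1 and LHCB1.1 were also lower in transgenic pools, with no overlap. LHCB2.1 had 891 and 610 CPM in transgenic pools and 1351 and 899 CPM in wild-type pools, with replicate 2 below replicate 1 by 0.55 and 0.59 on the log2 scale in transgenic and wild-type seedlings. Its log2 fold change was -0.58 and that of LHCB1.1 was -0.44 (edgeR adjusted p = 0.597 and 0.515). Without wild-type replicate 2, LHCB2.1 stood at -0.85. The Rubisco subunit gene RBCS1A and the Rubisco activase gene RCA had log2 fold changes of 0.0038 and 0.049. By edgeR, 2 of the 4 leaf markers, both LHCB genes, had an unadjusted p under 0.05 (50.0%, against 7.92% of all genes). The same 2 of the 4 leaf markers had both transgenic pools below both wild-type pools (50.0%, against 19.3% of all genes). None of the 4 was at 0, and they summed to 16096 and 16399 CPM in transgenic pools and 18286 and 16309.7 CPM in wild-type pools. The part of the epidermis and leaf markers in the CER1 values was not tested.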

How the data were processed

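Read counts per gene locus were deposited, per the file headers, and the values are whole numbers with different totals. The authors also deposited CPM and RPKM, which differed from values recomputed here from the counts and lengths by at most 0.0005. The deposited length (other unit, bases) served for RPKM. Build TAIR9 and the tools Bowtie, BWA 0.5.8c and edgeR appear in the submitters' processing notes. The tool that counted reads and its use of strand are not given in the sources used. The name table, which covered 98.64% of the 20701 loci, is of the later build TAIR10.1 and gave names, neighbours and overlaps only. The small RNA table was not used.

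All genes were fitted with edgeR 4.0.16 in R 4.3.3 (TMM, filterByExpr, glmQLFit, glmQLFTest, no covariate, adjusted p under 0.05), and 7 rose and 10 fell. The SE is the log2 fold change over the root of F. Replicates differed by more than counting noise (chi-square over its degrees of freedom was 11.1 in the transgenic and 10.2 in the wild-type pair). The p-values measure the spread between these pools, with each gene's own spread moderated by that of all genes tested. Counts of 0 allow up to 0.155 to 0.192 CPM (3 counts), for counting error only. Genes were named for their role, plus any cuticle or suberin gene that passed over all genes (there was none), and further cuticle genes described after their values were seen are marked. Marker genes are given for the tissue check and beside the suberin, cuticle and CER1 values, in whichever direction they moved. The members and lists were chosen with earlier results of these data known. Alternatives were DESeq2 1.42.0, limma 3.58.1 on log2(RPKM + 0.5) and log2(RPKM + 0.1), RLE or no factors, no filter, each library left out, a replicate block, robust fitting and adjusted p under 0.1. Figures used Python 3.11.15 and matplotlib 3.10.9.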

Additional observations from a re-analysis of the deposited data

How the results depend on the processing

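Over all genes, 17 were called, against 76 with DESeq2, 31 with robust fitting, 10 with limma at either pseudocount, 41 at adjusted p under 0.1, and 16 to 411 with 1 library left out. The count for the measured wax and cutin genes was 0 to 1 with 1 library left out, for the further cuticle genes 0 to 2, and for the suberin genes 0 throughout. The libraries share only a replicate number, and the deviations of the 2 replicate 1 libraries from their group means correlated at 0.285 across genes. A replicate block called 596 of 20298 genes. It called 1 of the 7 measured wax and cutin genes (CER1 at -0.59, edgeR adjusted p = 0.000321). Of the 52 tested further cuticle genes it called 3 (CUS2 at -0.81, DCR at -0.34 and CER26 at -0.33). Among marker genes the block also called LTP1, PHT1.1, LHCB1.1 (-0.43), LHCB2.1 (-0.58) and CRC of the seed markers (1.53), and PHT1.1 passed in DESeq2 and at adjusted p under 0.1. RBCS1A turned to -0.00098 in DESeq2 and -0.0013 with RLE factors. For the other genes with values in the report, no further alternative that kept all 4 libraries changed a call or turned a direction.

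With 1 library left out, direction turned for the following genes, which were mostly near 0 but included KCS9 at 0.21. The log2 fold changes ranged from -0.076 to 0.39 for CER3, -0.18 to 0.036 for CER6, -0.018 to 0.039 for KCS1, -0.10 to 0.0055 for LACS1 and -0.20 to 0.18 for LACS2. They ranged from -0.0091 to 0.047 for KCR1, -0.074 to 0.041 for CER10, -0.19 to 0.0028 for CER2, -0.048 to 0.13 for FDH, -0.080 to 0.17 for KCS20 and -0.058 to 0.53 for KCS9. The ranges were -0.075 to 0.073 for GPAT4, -0.018 to 0.033 for GPAT8, -0.041 to 0.042 for ABCG32 and -0.29 to 0.12 for DEWAX, and among markers -0.054 to 0.022 for ATML1, -0.096 to 0.31 for PDF1, -0.051 to 0.21 for ANL2, -0.050 to 0.046 for RBCS1A and -0.021 to 0.12 for RCA. Without a turn, CYP86A4 ranged from -0.56 to -0.17, MYB94 from 0.13 to 0.39, MYB96 from -0.29 to -0.069 and LHCB2.1 from -0.89 to -0.26. Among seed markers, CRA1 turned from 0.41 with all libraries to -4.45 without transgenic replicate 2. The median of the measured wax and cutin genes ranged from -0.037 to 0.0055. Such fits take a lone library's spread from the other group, and the cause of these shifts was not tested.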
